A study of Mus musculus with 3 samples.

Results

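The nuclear genes for the mitochondrial respiratory chain and ATP synthase were followed here as 86 of the 18245 genes in the deposited expression table. They were chosen by symbol alone, as the Nduf genes of complex I (letters a, b, c, s and v, without the Ndufaf assembly factors), Sdha to Sdhd of complex II, the Uqcr genes of complex III, the Cox4 to Cox8 genes of complex IV and the Atp5 genes of complex V. By role, 82 of them encode subunits: 36 in complex I, 4 in complex II, 8 in complex III, 17 in complex IV, 16 in complex V, and Cox7a2l, which links complexes III and IV. The other 4 carry a matching name only, namely Atp5s, a factor related to the synthase that is not a subunit by role, and the gene copies Ndufa11b, Ndufb4b and Ndufb4c, whose reads cannot be cleanly told from those of Ndufa11 and Ndufb4. The subunits encoded by mitochondrial DNA were not analysed here.

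RNA was sequenced from cultured heart cells of C57BL/6 mice, to compare cardiosphere-derived cells with epicardial cells, and the labels give the ventricle epicardium as the tissue of all groups. CDC were cardiosphere-derived cells grown from explants of the ventricle epicardium of mice aged 6 weeks and expanded to passage 3 in medium with 20% serum, without the inhibitor used below. CDC-EpiC were an epithelial clone picked from CDC that had been kept for 2 weeks with 10 µM SB-431542, which blocks TGF-beta signalling at its type I receptor, so that this group stands for 1 clone and not for CDC as a population. pEpiC were primary epicardial cells from mice aged 6 to 8 weeks, released by enzymatic digestion of the dissected heart and cultured to passage 3 in another medium with 10% serum and not exposed to the inhibitor. Age, isolation and medium thus differ together between pEpiC and CDC and cannot be told apart. Each group had 3 libraries, with 22008833 to 22756045 counts each. The labels speak of 3 separate samples per group but hold 1 sample record for each, and do not say whether the libraries came from separate animals or cultures, so that n = 3 counts libraries and p-values measure only the spread between them.

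The respiratory chain passes electrons from NADH through complex I, and from succinate through complex II, to complex III and then by cytochrome c to complex IV, which reduces oxygen. Proton pumping along the way drives complex V, the ATP synthase. Most subunits are nuclear genes with short transcripts that are expressed in every cell, but several complex IV subunits also exist as tissue-restricted forms, and cardiac muscle is known for its high content of these complexes.

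The words that some regulators of these genes recognise were looked up in the promoters of the members. RefSeq promoter entries (build GRCm38.p6) matched 69 of the 86 members by gene identifier, and the 250 bases before each start were searched on both strands for 3 words: GCATGCG (NRF1-type), CCGGAAG (the type bound by ETS factors such as GABPA) and ATGGCGG (YY1-type). GCATGCG was found in 9 members (13.0%), against 3.02% of all 32851 promoter entries and, counted by gene, 4.97% of the 14246 genes in the table with an entry. CCGGAAG was found in 12 members (17.4%), against 6.91% and 12.2%, and ATGGCGG in 4 members (5.80%), against 2.21% and 3.58%. The median log2 difference between pEpiC and CDC was -1.31 in the tested members with GCATGCG and -1.32 in those without it, -1.35 and -1.32 for CCGGAAG, and -1.10 (4 genes) and -1.34 for ATGGCGG. The 75 bases before the start are shown for the 6 genes below, 5′ to 3′ on the strand of the gene, because the first 3 had the largest falls in pEpiC against CDC and Atp5g3, Ndufa11 and Cox6b2 the largest rise and falls in CDC-EpiC. Capitals mark a word: CCGGAAG in Uqcr11 (bases -66 to -60 from the start) and, in Ndufa11, GCATGCG on both strands, at bases -59 to -53 and -58 to -52, the matches overlapping each other. A match describes the letters and is not a binding site.
Ndufb2, chr6:39592490-39592564, plus strand: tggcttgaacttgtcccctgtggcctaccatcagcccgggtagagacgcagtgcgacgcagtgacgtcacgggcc
Cox7a2, chr9:79759854-79759928, minus strand: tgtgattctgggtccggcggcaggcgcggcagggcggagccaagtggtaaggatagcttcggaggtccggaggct
Uqcr11, chr10:80406822-80406896, minus strand: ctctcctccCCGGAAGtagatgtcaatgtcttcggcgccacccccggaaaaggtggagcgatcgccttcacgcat
Atp5g3, chr2:73911327-73911401, minus strand: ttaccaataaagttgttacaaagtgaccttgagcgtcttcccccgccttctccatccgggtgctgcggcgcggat
Ndufa11, chr17:56717687-56717761, plus strand: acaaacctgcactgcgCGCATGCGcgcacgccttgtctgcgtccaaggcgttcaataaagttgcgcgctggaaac
Cox6b2, chr7:4753095-4753169, minus strand: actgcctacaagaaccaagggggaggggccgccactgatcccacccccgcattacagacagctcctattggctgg

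As a share of all counts, the members held 1.119%, 1.201% and 1.002% in the CDC libraries, 1.21%, 1.16% and 1.12% in the CDC-EpiC libraries, and 0.558%, 0.518% and 0.530% in the pEpiC libraries. The pEpiC libraries were therefore the lowest of all 9, while CDC and CDC-EpiC overlapped. Counts favour long transcripts, so levels between genes are given as TPM, which divide counts by length and scale every library to the same sum. On that scale the members held 2.65% ± 0.170 in CDC, 2.81% ± 0.0736 in CDC-EpiC and 1.54% ± 0.0451 in pEpiC (SD, n = 3).

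Summed TPM was lowest in pEpiC in each of complexes I to V. Complex I summed to 7136, 7326 and 6370 TPM in CDC, 7180, 6936 and 6619 in CDC-EpiC and 4269, 3955 and 4059 in pEpiC. Complex V, the largest sum, was at 8803, 9252 and 8219 TPM in CDC, 9785, 9810 and 9538 in CDC-EpiC and 5065, 4822 and 4964 in pEpiC. The sums of pEpiC lay below those of both other groups without overlap, and for complex V those of CDC-EpiC lay above those of CDC. Means were 2214 ± 164 TPM in CDC, 2415 ± 62.1 in CDC-EpiC and 1255 ± 39.8 in pEpiC for complex III, and 7587 ± 533, 7868 ± 274 and 4095 ± 143 for complex IV. Complex II was at 598 ± 13.2 TPM in CDC, 773 ± 28.4 in CDC-EpiC and 460 ± 12.4 in pEpiC (SD, n = 3), so that its 3 groups did not overlap. Cox7a2l stood apart, with 347 ± 24.9 TPM in CDC, 382 ± 10.4 in CDC-EpiC and 478 ± 9.40 in pEpiC, on a scale on which the median of all genes was itself higher by 0.41 (log2) in pEpiC than in CDC. The 4 highest members in every group were Atp5b, the catalytic beta subunit of the synthase, Cox8a, Cox6a1 and Cox4i1, with Atp5b at 1334 TPM in CDC, 1320 in CDC-EpiC and 815 in pEpiC and Cox6a1 first in CDC-EpiC at 1353 TPM.

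**Figure D1:**
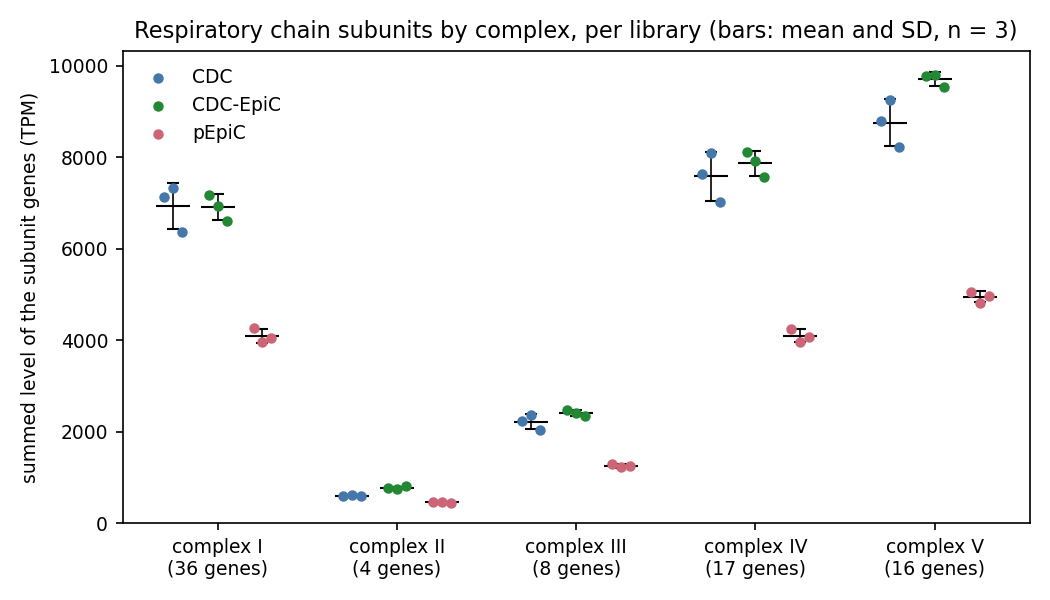
Summed TPM of the members of each complex in each library, with 1 point per library and black bars at the mean and SD of each group (n = 3). In complexes I to V all pEpiC points lie below those of CDC and CDC-EpiC, and in complexes II and V the CDC-EpiC points lie above those of CDC.

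The first comparison asked how primary epicardial cells differ from CDC. Of the 86 members, 81 passed the filter on low counts, and 77 of these passed edgeR's quasi-likelihood test (adjusted p under 0.05 over all genes), 75 of them lower and 2 higher in pEpiC. Among all 13526 genes tested, 78.3% passed, 39.8% higher and 38.5% lower. The median log2 difference of the members was -1.29, against 0.02 over all genes tested. Groups did not overlap in 77 of the 81 members, against 81.4% of all genes tested. Cox6a2 and Ndufa4l2 were the 2 that rose, and Atp5s, Cox7a2l, Ndufs1 and Sdha did not pass. In bulk samples, fewer cells of a type and less RNA per cell cannot be told apart.

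Transcript length moved with this comparison. The members had a median length of 655 bases (261 to 2878), 63 of them under 1000 bases, whereas all genes with at least 5 CPM (counts scaled to the library total) had a median of 2950 bases. Over 10605 genes that are no members the log2 difference rose by 0.44 per doubling of length, and over 78 members by 0.31. Under 500 bases the median log2 difference was -1.48 in 20 members and -1.25 in 79 other genes. From 500 to 1000 bases it was -1.34 in 36 members and -1.0 in 572 other genes, from 1000 to 2000 bases -0.98 in 18 and -0.48 in 2272, and from 2000 bases up -0.36 in 4 members and 0.16 in 7682 other genes. The members thus lay lower than other genes in each class of length, by less than the distance between the shortest and the longest class. Between libraries of the same group this slope reached 0.11 (CDC library 3 against CDC library 2), and the members of CDC library 3 had a median log2 difference of -0.19 from library 1 and -0.24 from library 2. Without CDC library 3 the median log2 difference between pEpiC and CDC was -1.40. Whether length differences came from the cells or from the RNA was not tested.

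**Figure D2:**
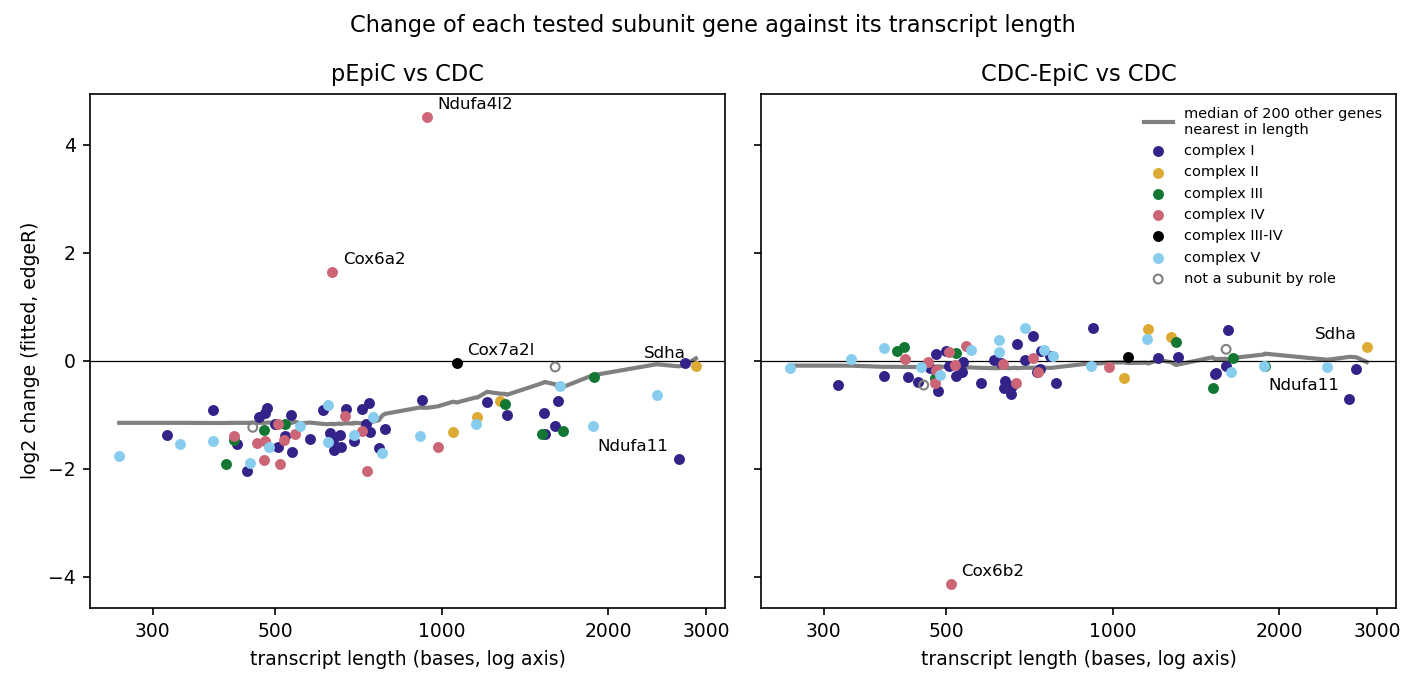
Fitted log2 change of each tested member (points, coloured by complex) against its transcript length in bases (log axis) in pEpiC against CDC and CDC-EpiC against CDC, with a grey line at the median of the 200 other genes nearest in length. In pEpiC against CDC the line rises with length and 62 of 81 members lie below it, while in CDC-EpiC against CDC the points lie around a nearly flat line, except Cox6b2.

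Each member was therefore set against the 200 genes nearest to it in length. These had a median log2 difference of -1.15 over the members, and the members differed from them by a median of -0.26, with 62 below and 19 above. Among 2495 other genes of 420 to 1610 bases, the 10th to 90th percentile of member length, 1130 lay below their own neighbours and 1365 above. Of these, 405 passed the test as higher and 1697 as lower in pEpiC, with a median log2 difference of -0.62. They were not matched to the lengths of the members within that range. Of other genes with at least 5 CPM, 96.2% were lower under 500 bases and 88.1% from 500 to 1000 bases, against 100% of the members in both classes. With an offset for length in the edgeR fit, 45 members were lower in both fits, 12 were higher, 24 did not pass, and the median was -0.23. Of all genes 74.7% passed in that fit, 39.9% higher and 34.8% lower. Over 78 members the log2 difference in that fit changed by -0.18 per doubling of length, so that shorter members tended to lie higher. Atp5j, Ndufa1, Ndufa6, Ndufb10, Ndufb5, Ndufc1, Ndufs5, Ndufs6 and Ndufv3 turned from lower to higher, and Cox7a2l joined them, so that direction in pEpiC depended on the treatment of length for these genes.

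**Figure D3:**
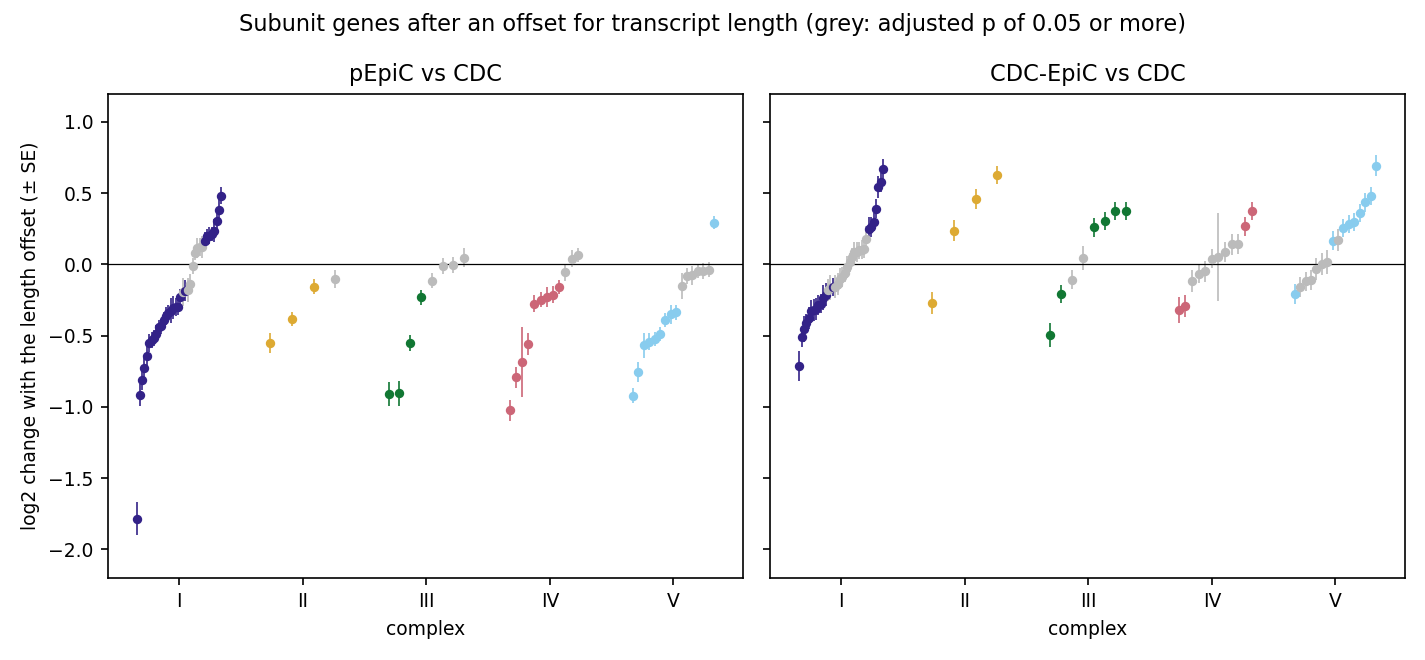
Log2 change of each tested subunit with the length offset, by complex, in pEpiC against CDC and CDC-EpiC against CDC, with 1 point and a bar of 1 SE per gene and grey points for genes that did not pass. More points lie below 0 than above it in pEpiC against CDC, and Cox6b2 (-4.04 in CDC-EpiC against CDC), Cox6a2 (2.74) and Ndufa4l2 (5.35, both in pEpiC against CDC) lie outside the axis, while Cox7a2l is not drawn.

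Complex I fell in 35 of its 36 members, with a median log2 difference of -1.24. With the length offset 20 were lower and 8 higher. Of all genes 38.5% were lower, and with the offset 34.8% were lower and 39.9% higher. Among other genes of 500 to 1000 bases with at least 5 CPM, 88.1% were lower without the offset. These shares also apply to the counts of complexes II to V below. Ndufb2, an accessory subunit of the membrane arm, had the largest fall of all members. It was at 48.4, 55.9 and 39.6 CPM in CDC and 13.1, 10.9 and 11.7 in pEpiC, without overlap (log2 difference -2.05, SE 0.13, adjusted p = 3.14e-07, edgeR, and -0.73 with the offset). Ndufa11, an accessory subunit with a long transcript of 2677 bases, was at 109, 109 and 80.9 CPM in CDC and 28.3, 29.0 and 29.5 in pEpiC, a log2 difference of -1.83 (SE 0.12, adjusted p = 2.67e-07, edgeR) that the offset left at -1.79. It lay below most genes of its length, 95.0% of which had a higher log2 difference. Both the offset and this rank rest on a length computed from counts and FPKM. Reads shared with Ndufa11b make the values of Ndufa11 uncertain.

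Among the core subunits, which carry the flavin and the iron-sulphur clusters, Ndufv1, the NADH-binding subunit, fell by 1.22 on the log2 scale (0.81 with the offset), and Ndufv2 fell by 1.36 (0.92 with the offset). Ndufs1, the largest iron-sulphur subunit, has a long transcript of 2753 bases and passed neither without nor with the offset. Other genes from 2000 bases up had a median log2 difference of 0.16. Ndufs1 was at 55.0, 54.2 and 61.1 CPM in CDC and 57.0, 55.0 and 58.7 in pEpiC, with overlap and a log2 difference of -0.03 (SE 0.06, adjusted p = 0.645, edgeR).

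Complex II, which links the chain to the citric acid cycle, fell in 3 of its 4 members and by a median of 0.90 on the log2 scale. Sdha, the flavoprotein that oxidises succinate, was at 138, 131 and 159 CPM in CDC and 139, 137 and 134 in pEpiC, overlapping (log2 difference -0.10, adjusted p = 0.225, edgeR). Sdhb, its iron-sulphur partner, fell from 110, 120 and 90.03 CPM to 44.3, 43.9 and 44.0 (log2 difference -1.31, SE 0.10, adjusted p = 1.01e-06, edgeR). The membrane anchors Sdhc and Sdhd fell by 1.05 and 0.74 on the log2 scale. With the offset Sdhb, Sdhc and Sdhd stayed lower, at -0.55, -0.38 and -0.16. Sdha, with a long transcript of 2878 bases, did not pass with the offset either, at -0.10. All 4 genes lay below genes of like length.

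All 8 genes of complex III fell, with a median log2 difference of -1.29, and 4 of them were also lower with the offset. Uqcr11, its smallest subunit, was at 111, 119 and 93.2 CPM in CDC and 32.2, 25.7 and 29.7 in pEpiC (log2 difference -1.92, SE 0.11, adjusted p = 1.41e-07, edgeR, and -0.55 with the offset). The core protein Uqcrc1 was at 222, 216 and 174 CPM in CDC and 84.8, 83.4 and 87.9 in pEpiC, 2.45-fold lower, whereas the other core protein Uqcrc2 was 1.23-fold lower. Both were lower in every pEpiC library, but the log2 difference of Uqcrc2 was -0.0039 with the offset (adjusted p = 0.954, edgeR) and that of Uqcrc1 -0.91. Uqcrfs1, the Rieske iron-sulphur protein, fell by 0.80 on the log2 scale.

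In complex IV, 12 of 14 tested members fell and 2 rose, with a median log2 difference of -1.44, and with the offset 9 were lower and 2 higher. Cox7a2, the ubiquitous form of subunit VIIa, was at 106, 121 and 85.5 CPM in CDC and 27.5, 24.8 and 25.9 in pEpiC (log2 difference -2.03, SE 0.12, adjusted p = 1.79e-07, edgeR). It was still lower with the offset, at -1.02. Cox4i1 fell by 1.30 on the log2 scale, Cox5a by 1.01, Cox7b by 1.60 and Cox8a by 1.47, each without overlap. With the offset Cox5a and Cox6a1 lay at 0.04 and 0.07 and did not pass (adjusted p = 0.555 and 0.257, edgeR).

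Cox7a2l, the paralogue of Cox7a2 that joins complexes III and IV, did not follow them. It was at 196, 216 and 215 CPM in CDC and 213, 208 and 205 in pEpiC, with overlap and a log2 difference of -0.04 (SE 0.06, adjusted p = 0.590, edgeR). Of the genes nearest in length, 13.0% had a higher log2 difference, and with the offset it was higher by 0.70 (adjusted p = 3.23e-06, edgeR). In TPM it ranked 5 among the members in pEpiC, after Atp5b, Cox6a1, Cox8a and Cox4i1.

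All 16 genes of complex V fell, with a median log2 difference of -1.39, and with the offset 9 were lower and Atp5j was higher. Atp5b was at 1486, 1445 and 1334 CPM in CDC and 630, 610 and 645 in pEpiC, 2.32-fold lower (log2 difference -1.22, SE 0.07, adjusted p = 1.20e-07, edgeR, and -0.92 with the offset). Atp5a1, the alpha subunit of the same catalytic head, was at 574, 555 and 575 CPM in CDC and 389, 363 and 379 in pEpiC, 1.54-fold lower. The 5 genes of the F1 part, which holds this head and the central stalk, all lay below genes of their length, with a median difference of -0.54. Subunit c, the rotor ring, is encoded by 3 genes that give the same mature protein. Atp5g1, Atp5g2 and Atp5g3 fell by 1.72, 1.501 and 1.38 on the log2 scale, and their shares of the summed c-subunit TPM were 26.8%, 47.2% and 26.01% in CDC and 23.4%, 48.1% and 28.5% in pEpiC.

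Of the 6 tissue-restricted forms of complex IV subunits 3 were tested, and 2 of these went against the other members. Ndufa4l2, a paralogue of the complex IV subunit Ndufa4 known for induction under low oxygen, had 7, 13 and 4 counts in CDC, 2, 2 and 3 in CDC-EpiC and 196, 174 and 233 in pEpiC. The pEpiC to CDC ratio of summed counts per total was 25.2, with a 95% counting interval of 16.8 to 39.6 (log2 difference 4.52, SE 0.29, adjusted p = 2.55e-07, edgeR, without overlap). It passed the filter on low counts through pEpiC alone. Ndufa4 itself was at 175, 218 and 177 CPM in CDC and 68.2, 69.1 and 66.7 in pEpiC, so that Ndufa4l2 made up 0.0917% ± 0.0416 of the TPM of the pair in CDC, 0.0278% ± 0.0087 in CDC-EpiC and 5.94% ± 0.959 in pEpiC (SD, n = 3).

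Cox6a2, the heart and skeletal muscle form of subunit VIa, had 44, 40 and 14 counts in CDC, 34, 37 and 26 in CDC-EpiC and 119, 97 and 115 in pEpiC. All pEpiC libraries lay above all others (log2 difference from CDC 1.64, SE 0.32, adjusted p = 0.000786, edgeR). CDC library 3 was the lowest, and without it the log2 difference was 1.27. Its ubiquitous partner Cox6a1 was at 347, 357 and 286 CPM in CDC and 160, 142 and 149 in pEpiC. Cox6a2 accounted for 0.348% ± 0.151 of the pair's TPM in CDC, 0.310% ± 0.0451 in CDC-EpiC and 2.47% ± 0.149 in pEpiC. The summed level of 10 cardiomyocyte markers was 29.8, 28.9 and 9.56 CPM in CDC, 11.7 to 13.7 in CDC-EpiC and 137 to 154 in pEpiC, with at most 3 markers at 0 in a library. Tnnt2 made up nearly all of the sum in pEpiC, at 144 CPM against 9.59 in CDC and 8.79 in CDC-EpiC. The other tested markers did not move with Cox6a2 in pEpiC against CDC, since Tnni3 was lower (log2 difference -1.12, adjusted p = 0.0183, edgeR) and Ryr2 did not pass (0.16, adjusted p = 0.699, edgeR). The counts of Myh6 were 191, 190 and 0 across the CDC libraries and 1, 0 and 0 across the pEpiC libraries. The part of such cells in the level of Cox6a2 was not tested.

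Cox6b2, the testis form of subunit VIb, had 53, 48 and 43 counts in CDC, 7, 0 and 1 in CDC-EpiC and 11, 15 and 15 in pEpiC. All CDC libraries lay above all others, and all CDC-EpiC libraries below those of pEpiC. The log2 difference between pEpiC and CDC was -1.91 (SE 0.24, adjusted p = 3.68e-05, edgeR) and -0.69 with the offset. The other tissue-restricted forms stayed below the filter and were not tested, as did the copies Ndufa11b and Ndufb4b. Cox4i2 had 7.49, 8 and 3 expected counts in CDC and 17, 9 and 28 in pEpiC, Cox7a1 had 11, 13 and 10 in CDC and 5, 1 and 5 in pEpiC, and Cox8b had 3, 2 and 0 in CDC, 6, 6 and 3 in pEpiC and 0 in every CDC-EpiC library, where 0 counts allow up to 3 in a library.

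**Figure D4:**
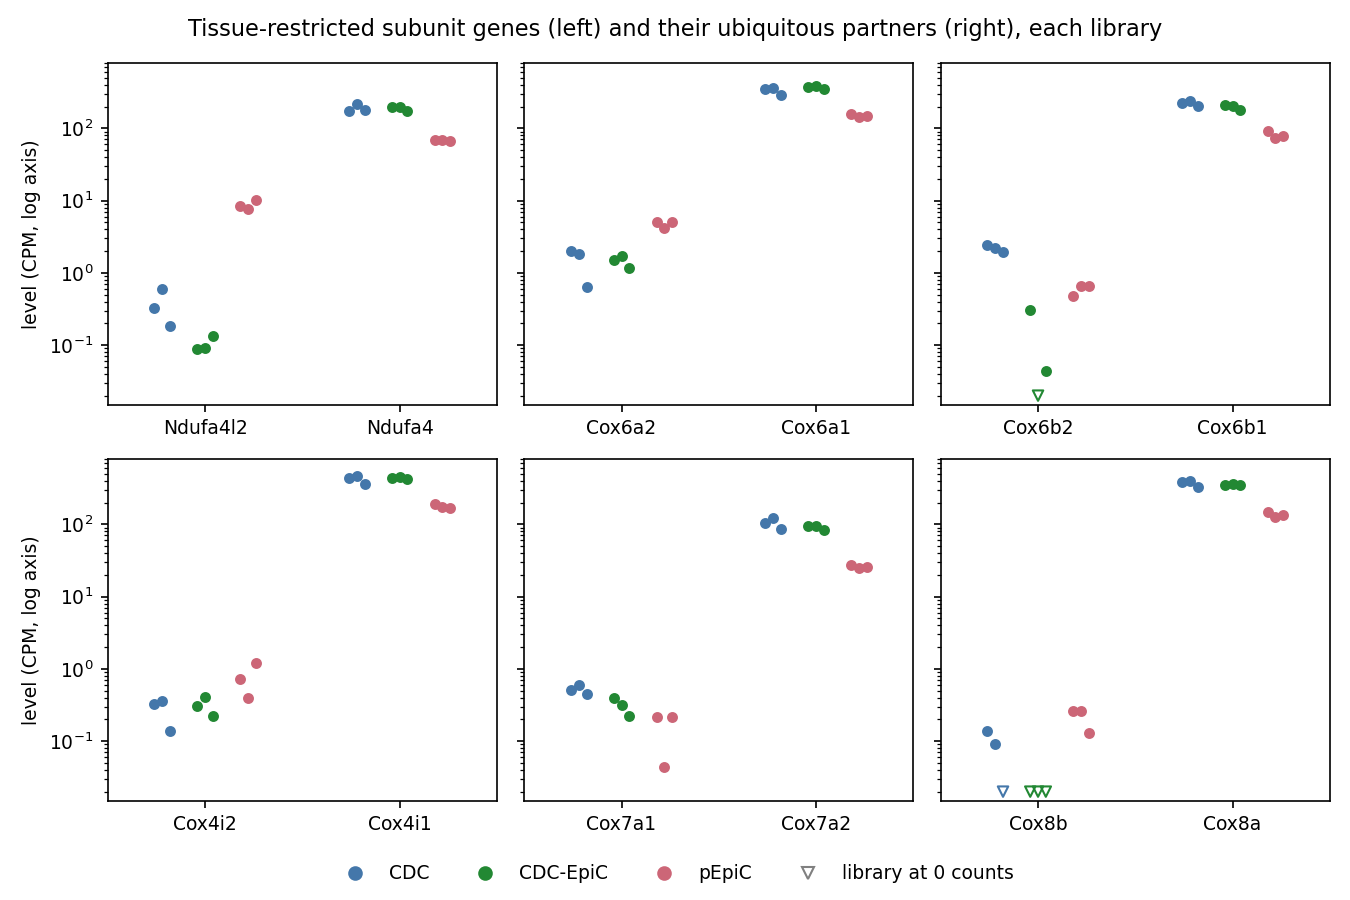
Level in CPM (log axis) of 6 tissue-restricted complex IV forms and their ubiquitous partners, with 1 point per library, 3 libraries per group, and open triangles for libraries at 0 counts. Ndufa4l2 and Cox6a2 are highest in pEpiC and Cox6b2 in CDC, while their partners Ndufa4, Cox6a1 and Cox6b1 are lowest in pEpiC.

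The second comparison set the epithelial clone against the CDC it was picked from. Of 80 members tested, 40 passed, 16 higher and 24 lower in CDC-EpiC, against 68.8% of 12976 genes (34.2% higher and 34.6% lower). The median log2 difference was -0.08 (0.03 with the length offset), against 0.0027 over all genes, and 0.02 relative to genes of like length, with 39 members below and 41 above. With the length offset 24 members were higher and 21 lower, against 35.3% and 35.2% of all genes (70.5% in either direction), 16 and 20 of them in the same direction as without it. Changes were small: against a 1.5-fold change Cox6b2 alone passed. Cox6b2 passed the filter on low counts through CDC alone in this comparison. Groups did not overlap in 36 of 80 members, against 72.1% of all genes.

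Complex II and the synthase held 9 of the 16 genes that were higher, 3 of 4 and 6 of 16 tested, where 34.2% of all genes were higher. Sdhc was at 152, 163 and 152 CPM in CDC and 231, 241 and 236 in CDC-EpiC (log2 difference 0.59, SE 0.07, adjusted p = 3.75e-06, edgeR). Sdhd was at 66.9, 68.8 and 67.5 CPM in CDC and 89.0, 89.3 and 97.9 in CDC-EpiC (0.43, adjusted p = 8.29e-05, edgeR). The anchors thus rose without overlap, while Sdhb went from 110, 120 and 90.03 CPM to 90.3, 83.9 and 82.4 and was lower with overlap (log2 difference -0.33, adjusted p = 0.00771, edgeR). Sdha was at 172, 160 and 181 CPM in CDC-EpiC against 138, 131 and 159 in CDC (log2 difference 0.25, adjusted p = 0.0164, edgeR), a call lost without CDC library 1, CDC library 2 or CDC-EpiC library 3 (adjusted p = 0.0622, 0.0781 and 0.107).

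In complex V, 6 of 16 genes rose, near the share of all genes (34.2%), 2 fell and 8 did not pass. Atp5g3, 1 of the 3 c-subunit genes, had the largest rise of all members, from 168, 166 and 164 CPM in CDC to 251, 254 and 260 in CDC-EpiC (log2 difference 0.61, adjusted p = 1.83e-06, edgeR). Atp5g2 rose from 276, 304 and 238 CPM to 361, 373 and 339 (0.38, adjusted p = 0.00196, edgeR), and Atp5g1 did not pass (0.09, adjusted p = 0.405, edgeR). The share of Atp5g3 in the summed c-subunit TPM was 26.01% ± 2.15 in CDC and 30.5% ± 1.01 in CDC-EpiC, and that of Atp5g1 was 26.8% ± 1.396 and 21.9% ± 0.799 (SD, n = 3). Atp5c1, the central stalk subunit gamma, was higher by 0.40 on the log2 scale, while Atp5a1 and Atp5b did not pass (-0.11 and -0.10).

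In complex I, 17 of 36 genes did not pass, 15 were lower and 4 higher, where 34.6% of all genes were lower. With the length offset 16 did not pass, 13 were lower and 7 higher, against 35.2% lower and 35.3% higher of all genes. Ndufa11 was at 60.5, 66.2 and 58.6 CPM in CDC-EpiC against 109, 109 and 80.9 in CDC, without overlap (log2 difference -0.70, SE 0.11, adjusted p = 3.10e-05, edgeR). Ndufab1, the mitochondrial acyl carrier protein, was at 52.9, 55.8 and 50.8 CPM in CDC-EpiC and 83.5, 89.99 and 67.5 in CDC (log2 difference -0.61, SE 0.10, adjusted p = 5.57e-05, edgeR). Against these, the core subunit Ndufs3 rose from 63.7, 59.3 and 63.3 CPM to 98.9, 93.7 and 92.6 (log2 difference 0.61, adjusted p = 2.57e-06, edgeR), without overlap. Ndufs1 and Ndufv1 did not pass (-0.15 and -0.09, adjusted p = 0.0857 and 0.332, edgeR).

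Of complex III, Uqcrc1 did not pass (0.05, adjusted p = 0.674, edgeR). Uqcr10 and Uqcrfs1 were higher and Uqcrb and Uqcrq lower, Uqcrfs1 by 0.36 (adjusted p = 0.000545, edgeR) and Uqcrq at 114, 115 and 106 CPM against 165, 176 and 132 in CDC (log2 difference -0.51, adjusted p = 0.00031, edgeR). In complex IV, Cox5b was higher by 0.27 on the log2 scale, and Cox5a, Cox6b2 and Cox6c were lower. Cox5a, a matrix-side subunit, went from 102, 108 and 102 CPM to 70.6, 81.4 and 85.2 (-0.41, adjusted p = 0.000417, edgeR). Cox6b2 had the largest fall of all members, with 8 summed counts in CDC-EpiC against 144 in CDC (ratio 0.0564, 95% counting interval 0.0239 to 0.114, log2 difference -4.14, SE 0.48, adjusted p = 1.66e-06, edgeR). Its log2 difference was -6.30 without CDC-EpiC library 1, which held 7 of the 8 counts, and -3.61 without CDC-EpiC library 2. For Ndufa4l2, which was not tested here, the ratio was 0.296 with a counting interval of 0.108 to 0.709, and Cox6a2 did not pass (log2 difference -0.05, adjusted p = 0.897, edgeR). Cox4i1, Cox6a1, Cox7a2, Cox7a2l and Cox8a did not pass either, with log2 differences of 0.05, 0.16, -0.20, 0.06 and -0.07.

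The third comparison set the clone against pEpiC, and shares its libraries with both others. Of 81 members tested, 79 passed, 75 higher and 4 lower in CDC-EpiC, against 81.9% of 13547 genes (40.3% higher and 41.5% lower). The median log2 difference was 1.16, and 0.32 relative to genes of like length, with 58 members above and 23 below. Those genes had a median of 0.95 over the members. Among 2497 other genes of 420 to 1610 bases, not matched to the lengths of the members within that range, 1615 were higher and 481 lower. Of other genes with at least 5 CPM, 1.25% were lower under 500 bases and 8.995% from 500 to 1000 bases, against 0% of the members in both classes. With the length offset 53 members were higher and 16 lower, against 37.3% and 42.9% of all genes (80.2% in either direction), with a median of 0.26. Of the 75 higher genes 53 were higher in both fits, 11 did not pass with the offset, and Atp5f1, Cox5a, Ndufa1, Ndufa3, Ndufa6, Ndufab1, Ndufb5, Ndufc1, Ndufs5, Uqcrb and Uqcrc2 turned from higher to lower. Groups did not overlap in 80 of 81 members, against 83.9% of all genes.

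Uqcr11 differed most among the genes that were higher, at 124, 128 and 117 CPM in CDC-EpiC against 32.2, 25.7 and 29.7 in pEpiC (log2 difference 2.06, SE 0.08, adjusted p = 6.22e-09, edgeR, and 0.86 with the offset). Atp5g3 and Atp5g2 followed at 1.95 and 1.84, and Atp5g3 had the largest value with the offset, 1.03. The 4 lower genes were Ndufa4l2, Cox6b2, Cox6a2 and Ndufs1, with log2 differences of -6.32, -2.27, -1.73 and -0.16. For Ndufa4l2 the ratio was 0.0118 (95% counting interval 0.0047 to 0.0244). The call of Cox6b2 (adjusted p = 0.0116, edgeR) was lost without CDC-EpiC library 3 (adjusted p = 0.0514), and its log2 difference was -4.43 without CDC-EpiC library 1. Cox6b2, like Ndufa4l2, passed the filter on low counts through pEpiC alone here. By complex, the genes higher and lower with the offset were 19 and 8 in complex I, 4 and 0 in complex II, 6 and 2 in complex III, 10 and 4 in complex IV, and 14 and 1 in complex V. Of all genes 37.3% were higher and 42.9% lower in that fit. Cox7a2l did not pass (0.06, adjusted p = 0.291, edgeR) and was lower with the offset, at -0.61.

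Other genes of the same pathway were counted from lists. In pEpiC against CDC, where 38.5% of all genes were lower, 77 of 78 mitochondrial ribosomal protein genes were lower and 0 higher. Their median log2 difference was -0.96, where genes of like length had -0.77. The median difference from those genes was -0.20, with 56 below and 22 above. With the offset 42 ribosomal genes were lower and 11 higher, against 34.8% and 39.9% of all genes. Of 48 tested assembly factors 38 were lower and 3 higher, with a median of -0.75 and with 23 lower and 5 higher under the offset, from Lyrm7 (-2.09) to Cox11 (0.53). Import genes were lower in 16 of 17, from Tomm6 (-1.85) up, and in 13 with the offset. Citric acid cycle genes were lower in 12 of 17 and higher in Sucla2 (0.30), and with the offset 11 were lower and 3 higher. The median difference from genes of like length was -0.13 for assembly factors, -0.29 for import genes and -0.47 for citric acid cycle genes.

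In CDC-EpiC against CDC, where 34.2% of all genes were higher and 34.6% lower, 13 of 78 ribosomal genes were higher and 24 lower, and with the offset 20 and 22. Of 48 assembly factors 12 were higher and 20 lower, of 17 import genes 2 and 9, and of 17 citric acid cycle genes 6 and 7. Suclg2 was the highest of these at 1.31 and Ndufaf2 the lowest at -1.35. In CDC-EpiC against pEpiC, where 40.3% of all genes were higher and 41.5% lower, 75 ribosomal genes were higher and 0 lower. With the offset it was 42 and 14, against 37.3% and 42.9% of all genes. The median difference from genes of like length was 0.13 for ribosomal genes and 0.09 for assembly factors. It was 0.18 for import genes and 0.35 for citric acid cycle genes. The assembly factors held 28 higher and 4 lower genes, and 22 and 16 with the offset, and the import genes 16 and 1, and 9 and 3 with the offset. Of the citric acid cycle genes 11 were higher and 5 lower, and 12 and 4 with the offset, the extremes of the 4 lists being Cox19 (2.19) and Ndufaf4 (-1.07). Cycs, the cytochrome c that carries electrons from complex III to IV, was at 150 CPM in CDC, 53.5 in CDC-EpiC and 53.6 in pEpiC, a fall from CDC by 1.49 and 1.52 on the log2 scale that the offset left at -1.51 and -1.56. Ucp2, an uncoupling protein family member, was at 4.49, 8.75 and 32.2 CPM in the same order, with a log2 difference of 2.81 between pEpiC and CDC.

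Of 20 tested regulators of mitochondrial biogenesis, 6 were higher and 7 lower in pEpiC than in CDC, both below the shares of all genes (39.8% and 38.5%). Myc was at 125 CPM in CDC, 84.4 in CDC-EpiC and 50.6 in pEpiC (log2 difference of pEpiC from CDC -1.35, adjusted p = 1.11e-06, edgeR). Esrra, the estrogen-related receptor that acts with the PGC family of coactivators, was at 30.4 CPM in CDC, 43.6 in CDC-EpiC and 20.9 in pEpiC, with log2 differences from CDC of 0.51 in CDC-EpiC and -0.58 in pEpiC. Ppargc1a, which encodes the alpha coactivator of that family, was low throughout, at 0.745 CPM in CDC, 1.21 in CDC-EpiC and 2.13 in pEpiC (1.47 on the log2 scale from CDC to pEpiC), and Ppargc1b was at 3.21, 9.65 and 3.21 CPM (1.58 from CDC to CDC-EpiC and -0.04, adjusted p = 0.832, from CDC to pEpiC, edgeR). Tfam, the packaging factor of mitochondrial DNA, had a log2 difference of -0.40, and Gabpa, Yy1 and Tfb2m were higher by 0.72, 0.62 and 0.56. Nrf1 did not pass in pEpiC against CDC (0.01, adjusted p = 0.861, edgeR). Esrrg had 1, 1 and 0 counts in CDC, 1, 1 and 2 in CDC-EpiC and 25, 27 and 17 in pEpiC. In CDC-EpiC against CDC 8 of 19 tested regulators were higher and 5 lower, against 34.2% and 34.6% of all genes, and in CDC-EpiC against pEpiC 8 of 20 were higher and 8 lower, against 40.3% and 41.5%.

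Cell type markers differed between the groups as well. The summed level of 8 epicardial markers was 641 to 686 CPM in CDC, 5773 to 6754 in CDC-EpiC and 553 to 589 in pEpiC, and 0 of these markers was at 0 in any library. Gene by gene, pEpiC were higher than CDC in Aldh1a2, Tcf21, Wt1 and Lrrn4 (log2 differences 3.07, 3.01, 2.30 and 0.92) and lower in Upk3b, Upk1b, Tbx18 and Msln (-1.77, -1.61, -0.96 and -0.86), and in CDC-EpiC the sum was carried by Upk3b, Lrrn4 and Upk1b, at 2664, 2129 and 1165 CPM. Of 10 macrophage markers the sum was 72.6 to 74.3 CPM in CDC, 30.1 to 32.9 in CDC-EpiC and 911, 346 and 317 in pEpiC, with up to 5 at 0 in a CDC-EpiC library and 0 at 0 in pEpiC. The first pEpiC library held the most. The median log2 difference of the members between pEpiC and CDC was -1.32 without that library, against -1.29 with it. Of 10 endothelial markers the sum was 408 to 481 CPM in CDC, 362 to 418 in CDC-EpiC and 317 to 320 in pEpiC, most of it from Eng, with up to 5 at 0 in a CDC-EpiC library. Of the 5 tested in pEpiC against CDC, Tek, Vwf and Kdr were higher (log2 differences 7.07, 2.18 and 1.33), and Egfl7 and Eng lower (-1.55 and -0.58). The part of these cells in the levels of the members was not tested.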

How the data were processed

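Poly(A) RNA of 3 groups with 3 libraries each was sequenced on the BGISEQ-500 platform. The authors deposited 1 table with the expected count, FPKM and TPM of each of 18245 genes in 9 libraries, and 9 columns of group means that were not used here. The submitters' processing notes name HISAT2 2.0.4, Bowtie2 2.2.5, RSEM 1.2.12, DESeq2 1.4.5 and the build mm10, without their roles. The gene annotation and the strand setting are not given in the sources used here. Of the deposited expected counts 30.3% were not whole, and all were rounded before testing. Each gene's length was computed as counts divided by FPKM and library total. Pairs of groups were compared over all genes with edgeR 4.0.16 (R 4.3.3; filterByExpr with minimum counts of 10 and 15 in total, TMM, quasi-likelihood test, Benjamini-Hochberg adjustment, threshold 0.05). The standard error is the log2 difference over the square root of F. CPM were taken after TMM. The length offset was a lowess fit per library (span 0.3) on log2 length. What was fitted was log2 CPM minus the mean log2 CPM of the gene over the libraries compared. Genes of like length were the 200 nearest genes that are no members with a mean of at least 5 CPM. The alternatives were RLE scaling, DESeq2 1.42.0, no filter, 1 fit of all libraries, limma 3.58.1 on log2 TPM (pseudocounts 1 and 0.1) and log2 FPKM, a test against a 1.5-fold change, a replicate block, and the omission of each library. The fits were tested on simulated data with few changed genes and no trend with length, unlike these data. That test therefore does not show how well the length offset works here.

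The members and the lists were chosen with earlier results of these data known. Members named with values were the tissue-restricted forms with their partners, the c-subunit genes, complex II, catalytic or redox subunits, and the 3 largest rises and falls without overlap in each comparison. Further members, such as Cox7a2l and Uqcrc2, were named after their values were seen. A gene that this rule names is not reported here. For each list of other genes the extremes are given. Libraries of a group differed by more than sampling noise (chi-square per degree of freedom 4.89 to 23.0), so all were kept. Intervals of count ratios are 95% and, like the floor of 3 counts, cover counting error only, since PCR reads are not independent molecules. Reads shared between near-identical copies (Ndufb4, Ndufb4b and Ndufb4c; Ndufa11 and Ndufa11b) make the values of these genes uncertain.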

Additional observations from a re-analysis of the deposited data

How the results depend on the processing

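The number of members past the threshold was 77 in pEpiC against CDC, 40 in CDC-EpiC against CDC and 79 in CDC-EpiC against pEpiC. With DESeq2 it was 77, 41 and 78, with the length offset 57, 45 and 69, and without each library in turn 77 to 79, 30 to 46 and 79 to 80. Against a 1.5-fold change it was 74, 1 and 68. The median log2 change in pEpiC against CDC (-1.29) was -0.23 with the length offset, -0.78 on log2(TPM + 1) and log2(TPM + 0.1), where the median of all genes stood at 0.41, and -1.15 on log2(FPKM + 1). It was -1.40 to -1.22 without each library. In CDC-EpiC against pEpiC (1.16) it was 0.26 with the offset and 0.81 on both TPM scales, where all genes stood at -0.33, and 1.12 to 1.201 without each library. In CDC-EpiC against CDC (-0.08) it was -0.14 to 0.01 without each library, positive without CDC library 2, and also positive with the length offset (0.03) and on both TPM scales (0.0042), where all genes stood at 0.07. The share of counts (1.11%, 1.16% and 0.535% in CDC, CDC-EpiC and pEpiC) was 2.65%, 2.81% and 1.54% of TPM.

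The difference from genes of like length was -0.33 to -0.20 (pEpiC against CDC), -0.02 to 0.04 (CDC-EpiC against CDC) and 0.29 to 0.37 (CDC-EpiC against pEpiC) over all settings, including a minimum of 50 CPM chosen after seeing the data.

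Among the members named with values, the length offset in pEpiC against CDC turned Cox5a (0.0402), Cox6a1 (0.0657), Cox7a2l (0.70) and Ndufs3 (0.12) positive, and log2(TPM + 1) and log2(TPM + 0.1) turned Atp5s (0.35 and 0.40), Cox7a2l (0.46 and 0.47), Ndufs1 (0.47 and 0.48), Sdha (0.40 and 0.41) and Uqcrc2 (0.20 and 0.21). In CDC-EpiC against pEpiC, the offset turned, of the same members, Cox5a (-0.37), Cox7a2l (-0.61), Ndufab1 (-0.22) and Uqcrc2 (-0.13) negative, and both TPM scales Cox7a2l (-0.32 and -0.32), Sdha (-0.0761 and -0.0767) and Uqcrc2 (-0.22 and -0.22). The offset removes the trend with length over all genes by construction, but not over the members. Their slope per doubling of length with the offset was -0.18 (pEpiC against CDC) and 0.15 (CDC-EpiC against pEpiC), against 0.31 and -0.26 without it. TPM divide each library by its summed FPKM, which was 525906 to 573070 in CDC, 530151 to 553139 in CDC-EpiC and 415930 to 429919 in pEpiC, so the TPM scales moved all genes alike, and a member near 0 that turned there was not set apart from other genes.

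The library numbers share no stated origin and did not pair the samples, since the same-number correlations were -0.109 to 0.0851. With the number as a replicate block 77, 43 and 79 members passed, with medians of -1.28, -0.08 and 1.15. Depth limits the tissue-restricted forms, several of which stayed below the filter on low counts.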
